A study of Mus musculus with 16 samples.

Results

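Protein phosphatase 2A (PP2A) is a serine/threonine phosphatase built from a catalytic C subunit, a scaffold A subunit and an exchangeable regulatory B subunit that selects substrates. The catalytic and scaffold subunits each come in an alpha and a beta form, and the regulatory subunits belong to several families, among them B55 and B56. AKT, the kinase downstream of PI3K, is one of its substrates, and in T cells PP2A is known as a brake on AKT and mTOR signaling. RACK1, encoded by Rack1, is a scaffold protein of the ribosome and of signaling complexes.

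The mRNA of 9 PP2A subunit genes was examined among 53090 genes in the deposited tables, with Rack1 shown beside them. The genes were taken by symbol, and all 9 had 1 row each. They encode the catalytic subunits (Ppp2ca and Ppp2cb), the scaffolds (Ppp2r1a and Ppp2r1b), 2 regulatory subunits of the B55 family (Ppp2r2a and Ppp2r2d) and 3 of the B56 family (Ppp2r5a, Ppp2r5c and Ppp2r5e). All 9 passed the filter on low counts in every comparison, and the lowest count of a member in any library was 836, for Ppp2r2d in WT Tn. All are protein-coding genes. In GENCODE M21 on GRCm38, the catalytic genes are Ppp2ca (chr11:52098681-52127778, plus strand) and Ppp2cb (chr8:33599625-33619441, plus strand), and the scaffold genes are Ppp2r1a (chr17:20945311-20965916, plus strand) and Ppp2r1b (chr9:50845301-50894229, plus strand). The B55 genes are Ppp2r2a (chr14:67014056-67072444, minus strand) and Ppp2r2d (chr7:138846079-138883057, plus strand). The B56 genes are Ppp2r5a (chr1:191351975-191403272, minus strand), Ppp2r5c (chr12:110447120-110583062, plus strand) and Ppp2r5e (chr12:75450881-75596245, minus strand), and Rack1 lies on chromosome 11 as well (chr11:48800332-48806434, plus strand).

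RNA came from CD4+ T cells of C57BL/6 wild type (WT) mice and of mice on the same background that lack AIM2, a cytosolic sensor of double-stranded DNA (Aim2-/-). Each genotype was represented by freshly isolated, uncultured naïve cells of the spleen (Tn) and by cells kept for 2 days (48 h) with antibodies to CD3 and CD28, recombinant human TGF-beta and recombinant mouse IL-2 (Treg), with 4 libraries in each of the 4 groups. Mice were matched for age and sex in the study, but neither the values nor the pooling of animals is given in the sources used here. The labels name no sort of FOXP3+ cells after culture, and no culture without TGF-beta is among the 16 libraries, so time in culture, stimulation and polarization cannot be told apart. The titles number the samples of each group from 1 to 4 but do not say whether each is 1 animal, a pool or a separate culture, so the p-values measure the spread between these libraries, which may in part be technical.

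Depth ranged from 22516424 to 34533316 counts per library. Values are CPM, counts relative to library size, scaled with TMM factors over the 16 libraries. The targeted gene followed the labels, with Aim2 at 32.3 to 37.9 CPM in WT Tn, 6.61 to 9.26 in Aim2-/- Tn, 35.7 to 43.3 in WT Treg and 7.17 to 10.8 in Aim2-/- Treg. The deleted part of Aim2 is not stated in the labels, and remaining counts in Aim2-/- libraries were not assigned to exons. Foxp3, the lineage factor of regulatory T cells, was at 1.96 to 4.03 CPM in the Tn libraries and at 278 to 573 CPM in the Treg libraries. The 7 CD4 T cell markers summed to 3850 to 5070 CPM in Tn and 1540 to 1790 CPM in Treg, and the 4 naïve T cell markers to 2220 to 3300 and 359 to 618 CPM. Markers of other cells were low in all 16 libraries: the highest sums were 2.27 CPM for 5 B cell genes, 9.14 for 6 myeloid genes, 12.2 for 2 CD8 T cell genes, 7.73 for 3 NK cell genes and 5.01 for 4 erythroid genes, and the B cell gene Ms4a1 was at 0 in every library. The sums of the myeloid, CD8, NK and erythroid lists were lower in every Treg library than in every Tn library, while those of the B cell list overlapped. In Tn the erythroid sum also separated the genotypes, at 0.667 to 2.58 CPM in WT and 3.34 to 5.01 CPM in Aim2-/-. The myeloid sum overlapped, at 3.8 to 9.14 CPM in WT and 6.74 to 8.73 CPM in Aim2-/-. Of the myeloid genes, Csf1r overlapped (0.755 to 2.52 and 1.27 to 2.87 CPM). Lyz2 did so only narrowly not, at 0.119 to 0.929 and 0.937 to 1.46 CPM. The part of these cells in the members' values was not tested.

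The WT Tn libraries did not form a tight group, which touches several results. In WT Tn, replicates 1 and 2 exceeded replicates 3 and 4 by at least 1.5 times in mean CPM for 3 of the 9 members: Ppp2r2a by 1.99 times, Ppp2r2d by 1.72 times and Ppp2ca by 1.63 times. Over all 14669 genes compared, 12.26% were at least 1.5 times higher and 8.74% at least 1.5 times lower in WT Tn replicates 1 and 2. In each of the other 3 groups no member reached 1.5 times in either direction. The shares of all genes were 5.23% higher and 3.14% lower in Aim2-/- Tn, and 5.97% and 4.21% in WT Treg. In Aim2-/- Treg they were 9.39% and 6.15%. A count of 0 of 9 is near these shares. A split by pair was also present in Treg, as for Ppp2r5a, at 99.0 and 95.1 against 117 and 120 CPM in WT. In Aim2-/- Treg its values were 95.6 and 92.3 against 117 and 116 CPM. The 5 Treg and activation markers summed to 98.1 to 100 CPM in WT Tn replicates 1 and 2 but to as little as 28.3 CPM in replicates 3 and 4, against 86.5 to 98.5 in Aim2-/- Tn. Foxp3 and Il2ra were at 1.96 to 4.03 and 2.66 to 4.16 CPM over the WT Tn libraries. The sum of the 4 naïve T cell markers was also higher in WT Tn replicates 1 and 2. It was highest in replicate 2 (3300 CPM) and lowest in replicate 4 (2290 CPM). The CD4, CD8, NK and myeloid sums were lower in replicates 1 and 2, and the B cell and erythroid sums overlapped. The part of these differences in the members' values was not tested, and the labels name no batch. The members' fold changes that rest on WT Tn are therefore also given with only one or the other pair of these libraries. These fits were chosen after seeing that members differ between the pairs. Their adjusted p-values are a description of how far results depend on the libraries, and no conclusion is drawn from them.

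**Figure D1:**
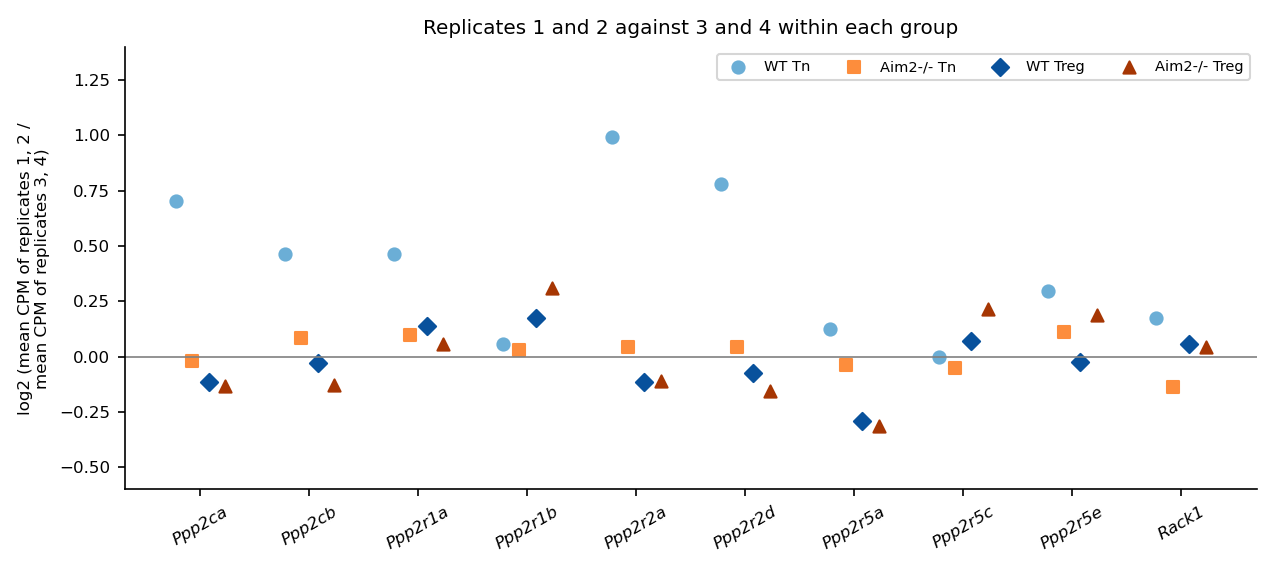
For each gene (x axis), the log2 ratio of the mean CPM of replicates 1 and 2 to that of replicates 3 and 4 within each of the 4 groups (y axis), 1 symbol per group. The WT Tn circles of Ppp2r2a, Ppp2r2d and Ppp2ca stand highest, at ratios of 1.99, 1.72 and 1.63.

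Promoters of 4 members are shown because these genes carry the results: Ppp2r1b and Ppp2r5a moved most between Tn and Treg, and Ppp2ca and Ppp2r2d varied together among the WT Tn libraries. Each is the 250 bases before a RefSeq start site (GRCm38.p6), written along the gene's strand, and 6 of the 9 members had an entry. By the GENCODE coordinates above, the windows of Ppp2r1b, Ppp2r5a and Ppp2r2d lie inside the gene, and that of Ppp2ca spans its start. Ppp2r2d had another, overlapping entry (chr7:138846136-138846385), which is not shown. Capitals mark GC boxes (GGGCGG or its complement CCGCCC) and cAMP response elements (TGACGTCA, the same on both strands), found as exact letters.
Ppp2r1b, chr9:50856674-50856923, plus strand: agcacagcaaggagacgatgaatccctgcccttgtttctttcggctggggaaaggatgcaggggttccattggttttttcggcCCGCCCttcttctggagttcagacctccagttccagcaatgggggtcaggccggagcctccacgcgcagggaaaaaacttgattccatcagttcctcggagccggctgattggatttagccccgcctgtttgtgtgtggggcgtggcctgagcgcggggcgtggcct
Ppp2r5a, chr1:191397042-191397291, minus strand: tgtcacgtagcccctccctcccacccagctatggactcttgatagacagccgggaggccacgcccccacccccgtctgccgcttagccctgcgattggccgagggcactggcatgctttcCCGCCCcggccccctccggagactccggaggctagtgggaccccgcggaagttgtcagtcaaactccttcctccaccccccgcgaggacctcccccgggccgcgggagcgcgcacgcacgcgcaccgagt
Ppp2ca, chr11:52098574-52098823, plus strand: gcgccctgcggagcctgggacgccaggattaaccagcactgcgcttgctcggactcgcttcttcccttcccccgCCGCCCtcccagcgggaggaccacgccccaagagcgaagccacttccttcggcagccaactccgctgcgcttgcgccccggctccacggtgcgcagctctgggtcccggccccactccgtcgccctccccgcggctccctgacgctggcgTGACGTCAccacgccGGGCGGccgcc
Ppp2r2d, chr7:138846109-138846358, plus strand: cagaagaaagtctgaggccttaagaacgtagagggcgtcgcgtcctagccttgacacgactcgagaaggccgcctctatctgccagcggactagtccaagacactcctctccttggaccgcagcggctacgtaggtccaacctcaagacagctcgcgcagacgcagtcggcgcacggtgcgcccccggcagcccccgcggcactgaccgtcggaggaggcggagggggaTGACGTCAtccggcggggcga
The GC box stood once in Ppp2r1b and Ppp2r5a and in 2 places in Ppp2ca, and 32.7% of all 32851 RefSeq promoter windows held it. The cAMP response element stood once each in Ppp2ca and Ppp2r2d, against 1.5% of all windows. The other members with an entry, Ppp2r1a, Ppp2r1b, Ppp2r5a and Ppp2r5c, held none. Among them, Ppp2r1a also varied with the pair, with Pearson r of 0.8 to Ppp2ca and 0.83 to Ppp2r2d in deviations from the group means. Ppp2cb and Ppp2r2a, which varied with the pair more closely, had no entry, and neither had Ppp2r5e. The GC content of the 4 windows was 59.2% for Ppp2r1b, 70.4% for Ppp2r5a, 73.6% for Ppp2ca and 65.6% for Ppp2r2d, beside a median of 52.4% over all windows. Matches of letters are a description of the sequence and were not tested as binding sites.

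The plot of all 9 members and Rack1 by library shows the levels on which the comparisons rest.

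**Figure D2:**
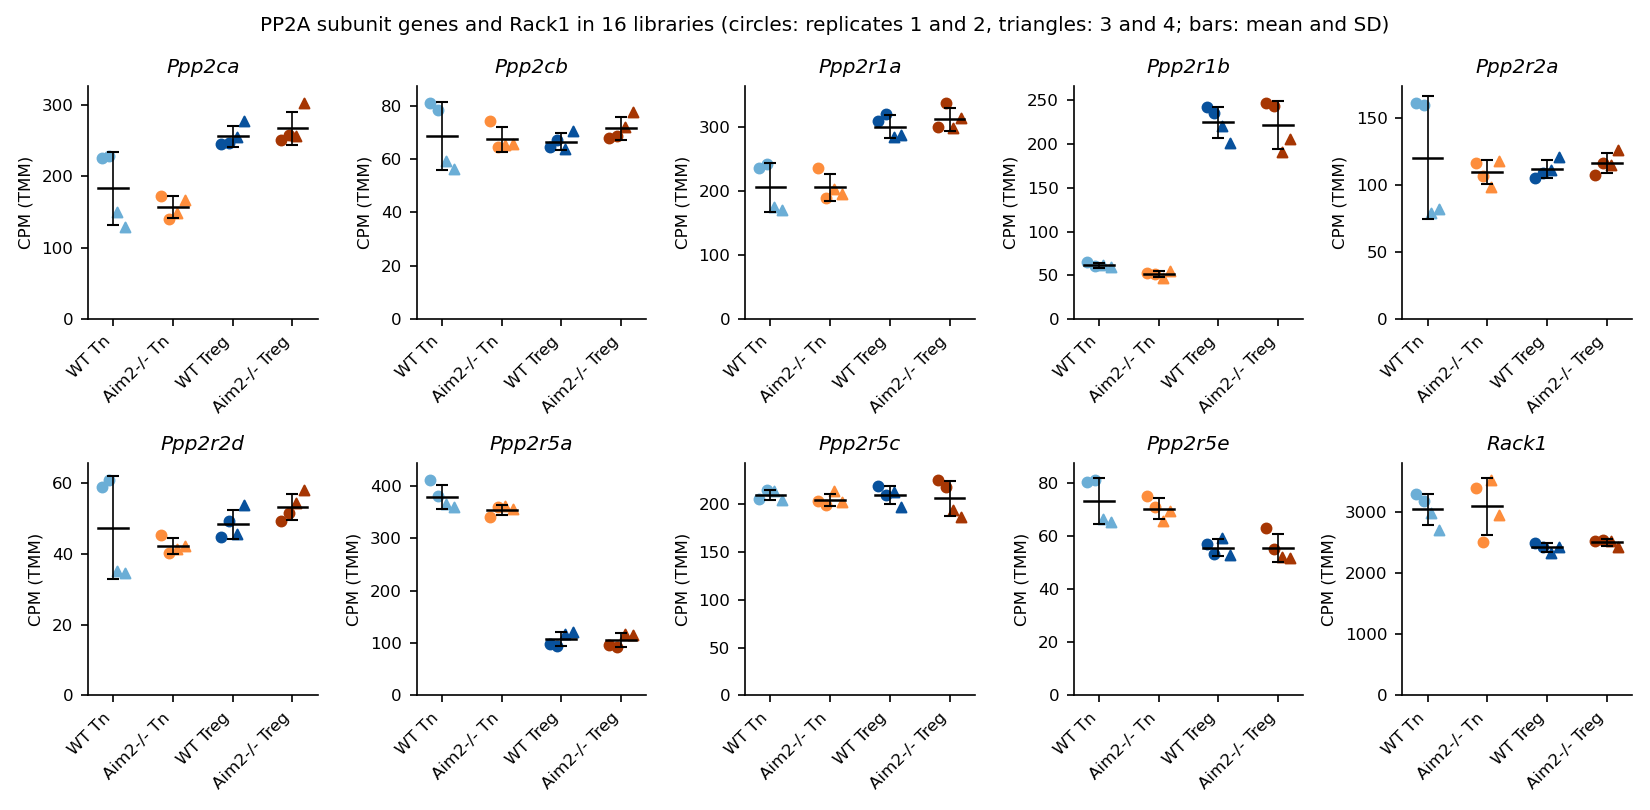
CPM (y axis, linear, from 0) of the 9 PP2A subunit genes and Rack1 in each of the 16 libraries by group (x axis). Points are libraries, with circles for replicates 1 and 2 and triangles for 3 and 4, and bars give the mean and SD of 4 libraries. Ppp2r1b stood at 47.2 to 65.2 CPM in the Tn libraries and at 191 to 247 in the Treg libraries, and Ppp2r5a at 341 to 412 and 92.3 to 120.

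Per kilobase of annotated exon, Ppp2r1a was the most abundant member in each group and Ppp2r2d the least. In WT Tn the order of mean CPM per kilobase was Ppp2r1a (60.5), Ppp2cb (46.7), Ppp2r5a (39.5), Ppp2r5c (25.3), Ppp2ca (24.5), Ppp2r2a (22.4), Ppp2r5e (13.7), Ppp2r1b (9.53) and Ppp2r2d (8.04). Only Ppp2r5a over Ppp2r5c and Ppp2r5e over Ppp2r1b were neighbours without overlap of the 4 libraries there. In WT Treg the order was Ppp2r1a (88.3), Ppp2cb (45.2), Ppp2r1b (34.9), Ppp2ca (34.2), Ppp2r5c (25.3), Ppp2r2a (20.8), Ppp2r5a (11.2), Ppp2r5e (10.4) and Ppp2r2d (8.21). In that group, only the pairs Ppp2r1b and Ppp2ca, and Ppp2r5a and Ppp2r5e, were neighbours with overlapping libraries. Exon length here is the union over all annotated transcripts, so a gene with long unused exons is placed too low. The order in Aim2-/- Tn was that of WT Tn, and in Aim2-/- Treg it differed from WT Treg in placing Ppp2ca (35.7) above Ppp2r1b (34.4), which overlapped.

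The effect of AIM2 deficiency on the members was asked in Tn and in Treg separately. No member differed between Aim2-/- and WT at an adjusted p under 0.05 in either state. In Tn, edgeR's quasi-likelihood test called 0 of 9 members, where it called 0.231% of the 13441 genes tested, and DESeq2 and limma-voom also called 0 of 9. At an unadjusted p under 0.05 the count was 1 of 9, against 10.3% of all genes. In Treg the counts were 0 of 9 called by each of the 3 tools and 0 of 9 at an unadjusted p under 0.05, where edgeR called 0.219% of 13221 genes and 2.31% passed unadjusted. The log2 fold changes in Tn ran from -0.25 (Ppp2r1b) to 0.00 (Ppp2r1a), with a median of -0.09 beside 0.01 over all genes tested, and 8 of 9 were below 0, as were 47.3% of all genes. That count depended on the WT Tn libraries used. With only WT Tn replicates 1 and 2, all 9 were below 0. With only replicates 3 and 4, Ppp2ca, Ppp2cb, Ppp2r1a, Ppp2r2a, Ppp2r2d and Ppp2r5e were above 0, and Ppp2r1b, Ppp2r5a and Ppp2r5c below. No member was without overlap of the genotypes in Treg (2.27% of all genes were). The changes there ran from -0.04 (Ppp2r5a) to 0.13 (Ppp2r2d), with a median of 0.05 beside 0 over all genes. In this Tn contrast the erythroid markers were higher in Aim2-/-, at 5.01 CPM or less in sum, and their part in the members' values was not tested. These are bulk samples, in which fewer cells of a type and less RNA per cell cannot be told apart.

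**Figure D3:**
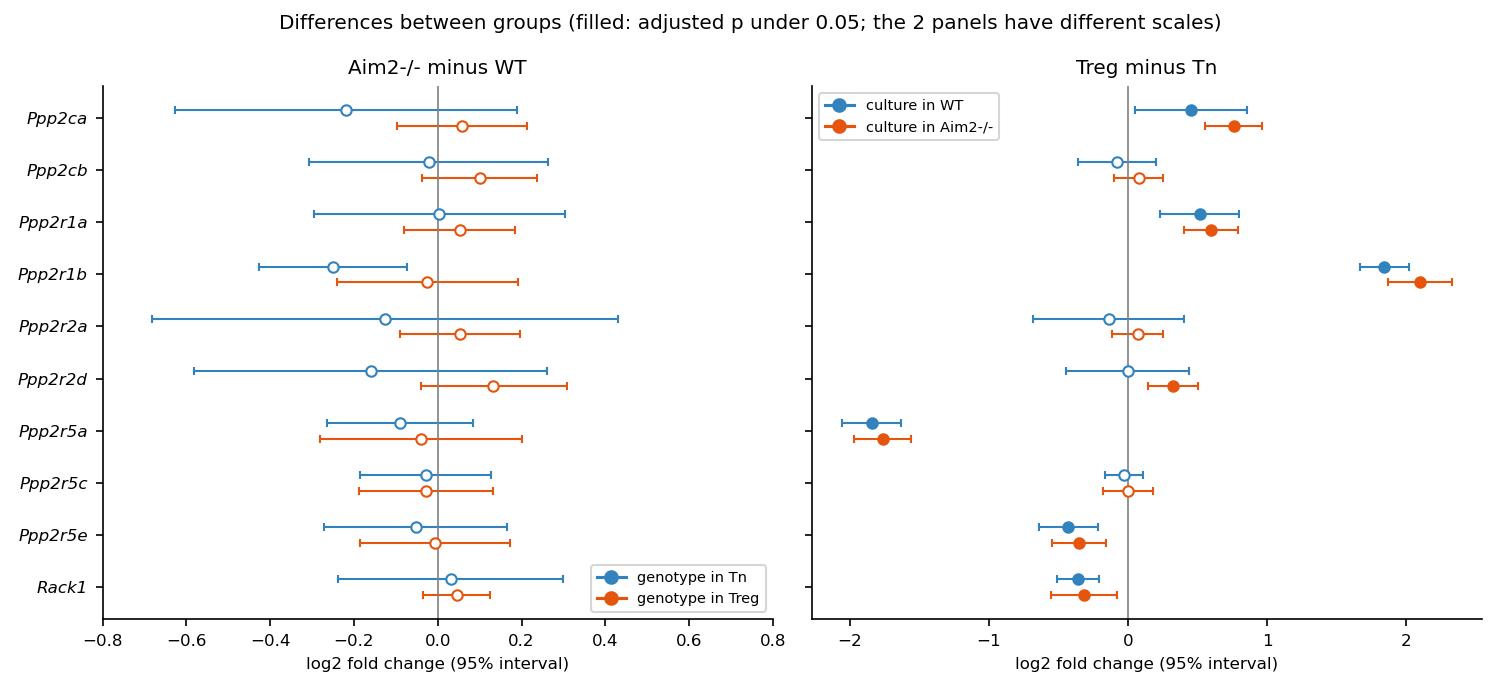
Log2 fold change (x axis) with its 95% interval for the 9 members and Rack1 (y axis), Aim2-/- minus WT on the left and Treg minus Tn on the right (the panels differ in scale), from edgeR with 4 libraries a group. Filled points have an adjusted p under 0.05: none on the left, and on the right 5 members in WT, 6 in Aim2-/- and Rack1 in both.

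Among the catalytic subunits, Ppp2ca was at 226, 228, 150 and 129 CPM in WT Tn and at 172, 140, 148 and 167 CPM in Aim2-/- Tn. The Aim2-/- values all lay within the range of the WT values. The log2 fold change was -0.22 (SE 0.18, edgeR adjusted p = 0.70), with a 95% interval from -0.63 to 0.19. With only WT Tn replicates 3 and 4 it was 0.16, and with only replicates 1 and 2 it was -0.53 (adjusted p = 0.50 and 0.05). Neither passed. Ppp2cb was at 80.9, 78.3, 59.2 and 56.2 CPM in WT Tn and at 74.2, 64.4, 65.1 and 65.5 in Aim2-/- Tn, again inside the WT range, and the fitted change was -0.02 (95% interval -0.31 to 0.26), or -0.24 with only WT Tn replicates 1 and 2 and 0.21 with only replicates 3 and 4. In Treg, the change was 0.06 (interval -0.10 to 0.21) for Ppp2ca and 0.10 (interval -0.04 to 0.24) for Ppp2cb.

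Among the scaffolds, which hold the catalytic and regulatory subunits together, Ppp2r1b was the member with the smallest p in Tn. It was at 65.2, 60.3, 61.3 and 59.1 CPM in WT Tn and at 52.5, 51.4, 47.2 and 54.7 CPM in Aim2-/- Tn. The highest Aim2-/- value was thus under the lowest WT value, and 1 of 9 members without overlap compares with 6.93% of all genes tested in Tn. The log2 fold change was -0.25 (SE 0.08, unadjusted p = 0.01), and it did not pass the correction over all genes (edgeR adjusted p = 0.39). It stayed between -0.29 and -0.24 in 13 other fits and between -0.28 and -0.21 when each library was left out in turn, and no fit called it. It was -0.29 with only WT Tn replicates 1 and 2 and -0.24 with only replicates 3 and 4. Sik2, a kinase gene on the opposite strand whose exons overlap 1429 bases of Ppp2r1b, was at 25.5 ± 4.34 CPM in WT Tn and 17.5 ± 4.01 CPM in Aim2-/- Tn (SD, n = 4). The strand setting of the counting is not given in the sources used here. Reads of Ppp2r1b and Sik2 over the shared exons therefore cannot be told apart, and the same holds for Ppp2r2d and its opposite-strand neighbour Mapk1ip1. Fractional parts of the Ppp2r1b and Sik2 counts complemented each other within 0.02 in 15 libraries. The part of Sik2 reads in the Ppp2r1b difference was not tested. In Treg, Ppp2r1b overlapped, with 202 to 242 CPM in WT and 191 to 247 CPM in Aim2-/- and a log2 fold change of -0.025 (95% interval -0.24 to 0.19). Ppp2r1a was at 171 to 242 CPM in WT Tn and 189 to 236 in Aim2-/- Tn, and its change of 0.00 had an interval from -0.30 to 0.30. It was -0.22 with only WT Tn replicates 1 and 2 and 0.24 with only replicates 3 and 4.

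The B55 subunits, which steer PP2A towards AKT and cell cycle substrates, were the members that depended most on which WT Tn libraries were used. Ppp2r2a was at 161, 160, 79.0 and 82.4 CPM in WT Tn and at 117, 107, 98.8 and 118 CPM in Aim2-/- Tn. The Aim2-/- libraries fell in the gap between the WT pairs. With all libraries the log2 fold change was -0.13 (SE 0.25, adjusted p = 0.88). It was -0.54 (adjusted p = 0.038) with only WT Tn replicates 1 and 2 and 0.44 (adjusted p = 0.053) with only replicates 3 and 4, so the direction turned. Ppp2r2d was at 59.0, 61.0, 35.3 and 34.6 CPM in WT Tn and at 45.5, 40.2, 41.4 and 42.2 CPM in Aim2-/- Tn, and likewise fell between the pairs. Its change was -0.16 with all libraries, -0.50 (adjusted p = 0.038) with only WT Tn replicates 1 and 2, and 0.27 (adjusted p = 0.17) with only replicates 3 and 4. The count of members called in Tn was thus 2 with the first pair and 0 with the other. Over all genes, edgeR called 156 of 13557 with the first pair and 376 of 13462 with the other, against 31 of 13441 with all libraries. In Treg the 2 genes differed between the genotypes by 0.05 (interval -0.09 to 0.20) and 0.13 (interval -0.04 to 0.31).

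The B56 subunits differed little between the genotypes. Ppp2r5a, which lies 17.9 Mb from the targeted gene on chromosome 1, was at 412, 380, 366 and 359 CPM in WT Tn and at 341, 359, 362 and 357 CPM in Aim2-/- Tn. These ranges overlapped, and the log2 fold change was -0.09 (95% interval -0.26 to 0.08). Ppp2r5c was at 204 to 214 CPM in WT Tn and 199 to 214 CPM in Aim2-/- Tn, with a change of -0.03 (interval -0.19 to 0.13), and the value for Ppp2r5e was -0.05 (interval -0.27 to 0.17). The values were -0.16 for Ppp2r5a, -0.04 for Ppp2r5c, -0.20 for Ppp2r5e and -0.06 for Rack1 with only WT Tn replicates 1 and 2, and with only replicates 3 and 4 they were -0.04, -0.04, 0.08 and 0.11. In Treg the changes of the 3 genes were -0.04, -0.03 and -0.01, with intervals inside -0.28 and 0.20. Rack1 was at 2712 to 3293 CPM in WT Tn and 2503 to 3529 in Aim2-/- Tn, a log2 fold change of 0.03 (interval -0.24 to 0.30), and its change in Treg was 0.045 (interval -0.03 to 0.12).

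The second comparison asked how the members differed between Tn and Treg within a genotype. In WT, 3 of 9 members were higher in Treg (Ppp2ca, Ppp2r1a and Ppp2r1b), 2 were lower (Ppp2r5a and Ppp2r5e) and 4 did not pass (Ppp2cb, Ppp2r2a, Ppp2r2d and Ppp2r5c). In Aim2-/-, 4 of 9 were higher (Ppp2r2d in addition), 2 were lower (Ppp2r5a and Ppp2r5e) and 3 did not pass. Most genes differ in this contrast: edgeR called 76.9% of 13675 genes in WT (37.7% higher, 39.2% lower) and 79.3% of 13713 in Aim2-/- (39.1% higher, 40.2% lower). In the same contrast 5 of 9 members in WT and 6 of 9 in Aim2-/- had groups that did not overlap, where 72.9% and 74.8% of all genes did not. The members' counts of 5 and 6 of 9 are thus below the background shares and are no result about the subunits as a group. The median log2 fold change of the members was -0.03 in WT and 0.08 in Aim2-/-, beside -0.05 and -0.04 over all genes tested.

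The scaffold beta gene Ppp2r1b rose most. It was at 65.2, 60.3, 61.3 and 59.1 CPM in WT Tn and 242, 235, 221 and 202 CPM in WT Treg. In Aim2-/- it went from 52.5, 51.4, 47.2 and 54.7 CPM to 247, 243, 191 and 206 CPM. No Treg library came near a Tn library in either genotype. The change was 3.58-fold in WT (log2 1.84, SE 0.08, adjusted p = 2.9e-08) and 4.28-fold in Aim2-/- (log2 2.10, SE 0.10, adjusted p = 7.1e-09). In WT it was 1.80 with only Tn replicates 1 and 2 and 1.83 with only replicates 3 and 4, on the log2 scale. The overlapping gene Sik2 was at 25.5 ± 4.34 CPM in WT Tn, 26.5 ± 3.09 in WT Treg, 17.5 ± 4.01 in Aim2-/- Tn and 24.5 ± 2.86 in Aim2-/- Treg (SD, n = 4).

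Ppp2r1a rose less. It was at 236, 242, 175 and 171 CPM in WT Tn and 310, 321, 285 and 288 CPM in WT Treg, and at 189 to 236 CPM in Aim2-/- Tn and 299 to 338 CPM in Aim2-/- Treg. The Tn and Treg libraries did not overlap in either genotype, and the changes were 1.43-fold in WT (log2 0.51, SE 0.13, adjusted p = 0.0039) and 1.51-fold in Aim2-/- (log2 0.595, SE 0.09, adjusted p = 6.8e-05). In WT the log2 fold change was 0.29 with only Tn replicates 1 and 2 and 0.725 with only replicates 3 and 4, and it was called with each.

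Ppp2ca was at 226, 228, 150 and 129 CPM in WT Tn and 245, 247, 255 and 278 CPM in WT Treg. Every Treg library was above every Tn library, but the higher Tn pair was close to the Treg values. The log2 fold change was 0.45 (SE 0.18, adjusted p = 0.042), and the call depended on the libraries used. It was 0.13 (adjusted p = 0.12) with only WT Tn replicates 1 and 2 and 0.81 (adjusted p = 4.7e-05) with only replicates 3 and 4. The call was also lost without WT Tn replicate 3 (0.36, adjusted p = 0.089), WT Tn replicate 4 (0.31, 0.07), WT Treg replicate 3 (0.50, 0.054) or WT Treg replicate 4 (0.46, 0.068), and without the filter on low counts (0.498, 0.05). In Aim2-/-, Ppp2ca rose from 140 to 172 CPM in Tn to 252 to 302 CPM in Treg, 1.69-fold (log2 0.76, SE 0.09, adjusted p = 1.5e-05). Ppp2cb did not pass in either genotype, at 56.2 to 80.9 CPM in Tn and 63.7 to 77.5 CPM in Treg over all libraries. Its log2 fold change in WT was -0.08 with all libraries, -0.30 (adjusted p = 0.0042) with only WT Tn replicates 1 and 2 and 0.13 (adjusted p = 0.14) with only replicates 3 and 4.

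Ppp2r5a, a B56 subunit, fell most. It was at 412, 380, 366 and 359 CPM in WT Tn and 99.0, 95.1, 117 and 120 CPM in WT Treg. In Aim2-/- it went from 341, 359, 362 and 357 CPM to 95.6, 92.3, 117 and 116 CPM. The Treg libraries lay at 92.3 to 120 CPM and the Tn libraries at 341 to 412 CPM. The log2 fold change was -1.84 in WT (SE 0.10, 0.279 of the Tn level, adjusted p = 9.5e-08) and -1.76 in Aim2-/- (SE 0.09, 0.295 of the Tn level, adjusted p = 1.4e-08). In WT it was -1.915 with only Tn replicates 1 and 2 and -1.82 with only replicates 3 and 4. Of its annotated windows of 51 bases, 10.75% also occurred in other genes, so part of its reads could have been divided in counting.

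Ppp2r5e fell from 80.2, 81.2, 66.6 and 65.2 CPM in WT Tn to 57.0, 53.4, 59.4 and 52.8 CPM in WT Treg, a log2 fold change of -0.43 (SE 0.10, adjusted p = 0.0022). It was -0.58 with only WT Tn replicates 1 and 2 and -0.32 with only replicates 3 and 4, called with each, while Ppp2r5c was at -0.04 and -0.07 and called with neither. In Aim2-/- the change was -0.35 (SE 0.09, adjusted p = 0.003), and in both genotypes the groups did not overlap. Ppp2r5c did not pass, with 197 to 219 CPM in WT Treg beside 204 to 214 CPM in WT Tn and a log2 fold change of -0.03 in WT (95% interval -0.17 to 0.11) and 0.00 in Aim2-/- (interval -0.18 to 0.18). Of the 3 B56 genes, 2 were thus lower in Treg and 1 did not pass.

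For the B55 genes the WT comparison had no fixed direction. Ppp2r2a was at 105, 110, 112 and 121 CPM in WT Treg, between the WT Tn pair at 161 and 160 and the pair at 79.0 and 82.4 CPM. Its log2 fold change of -0.14 with all libraries (adjusted p = 0.61) became -0.56 (adjusted p = 0.00014) with only WT Tn replicates 1 and 2 and 0.40 (adjusted p = 0.0013) with only replicates 3 and 4. Ppp2r2d was at 44.9, 49.4, 45.6 and 53.9 CPM in WT Treg, and its change of 0.00 with all libraries (adjusted p = 0.99) became -0.35 (adjusted p = 0.0076) and 0.40 (adjusted p = 0.0051). The comparison passed in opposite directions with the 2 pairs for these genes. The pairs were set apart after seeing that these genes differ between them, so the turn in direction follows from the split and is no separate test. The count of members called in WT was 7 of 9 with either pair, 5 higher and 2 lower with only replicates 3 and 4, and 2 higher and 5 lower with only replicates 1 and 2. Over all genes, edgeR called 10215 of 13468 with only replicates 3 and 4 and 10377 of 13516 with only replicates 1 and 2. The members' count is near these shares and is no result about the subunits. In Aim2-/-, Ppp2r2d rose from 45.5, 40.2, 41.4 and 42.2 CPM to 49.3, 51.7, 54.4 and 58.0 CPM (log2 0.32, SE 0.08, adjusted p = 0.0032). That call was lost with all 16 libraries in one fit (0.334, adjusted p = 0.058) and within replicates 1 and 2 (0.239, adjusted p = 0.075). Ppp2r2a did not pass (0.07, 95% interval -0.11 to 0.25). Mapk1ip1 lies on the opposite strand and shares 195 bases of exon with Ppp2r2d. It was at 27.7 to 36.9 CPM in Aim2-/- Tn and 4.92 to 6.06 CPM in Aim2-/- Treg. In WT it was at 23.9 to 31.0 CPM in Tn and 5.69 to 6.93 CPM in Treg. The part of Mapk1ip1 reads in the Ppp2r2d values was not tested.

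Rack1 was lower in Treg. It was at 3293, 3175, 2992 and 2712 CPM in WT Tn and 2491, 2437, 2326 and 2430 CPM in WT Treg, without overlap (log2 -0.36, SE 0.07, adjusted p = 0.00068). The change was -0.46 with only WT Tn replicates 1 and 2 and -0.31 with only replicates 3 and 4, called with each. In Aim2-/- it was at 3393, 2503, 3529 and 2959 CPM in Tn and 2531, 2544, 2520 and 2423 CPM in Treg, and Aim2-/- Tn replicate 2 lay among the Treg libraries. The change there was -0.32 (SE 0.11, adjusted p = 0.018), and it lost its call without any 1 of the 4 Aim2-/- Treg libraries (-0.28 to -0.25, adjusted p = 0.06 to 0.084). Ribosomal protein genes, whose products share the ribosome with RACK1, took 13.3% to 17.7% of counts in Tn and 9.84% to 10.5% in Treg.

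Whether the change from Tn to Treg differed between the genotypes was tested as an interaction over all 16 libraries. edgeR called 0 of 9 members, beside 0.0205% of 14669 genes, and 0 of 9 passed at an unadjusted p under 0.05, beside 3.49% of all genes. DESeq2 and limma-voom called 0 of 9 as well. The smallest p was that of Ppp2r1b (0.24, SE 0.12, unadjusted p = 0.074, adjusted p = 1). With only WT Tn replicates 1 and 2, Ppp2r2d passed (0.615, adjusted p = 0.047), and with only replicates 3 and 4 its value was -0.13 (adjusted p = 0.81). Over all genes, edgeR called 34 of 14530 with the first pair and 73 of 14467 with the other. The 9 members ran from -0.014 (Ppp2r5c) to 0.615 with the first pair and from -0.385 (Ppp2r2a) to 0.21 (Ppp2r1b) with the other, where no member was called. The call of Ppp2r2d in Aim2-/- and not in WT is therefore not shown to be a difference between the genotypes.

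Ratios of 2 genes of a class within a library do not depend on scaling between libraries. The log2 ratio of Ppp2ca to Ppp2cb counts went from 1.39 ± 0.15 in WT Tn to 1.945 ± 0.05 in WT Treg, and from 1.22 ± 0.10 to 1.90 ± 0.05 in Aim2-/- (SD, n = 4). The log2 ratio of Ppp2r1a to Ppp2r1b went from 1.73 ± 0.24 to 0.42 ± 0.07 in WT and from 2.00 ± 0.16 to 0.50 ± 0.16 in Aim2-/-. That of Ppp2r5c to Ppp2r5e went from 1.52 ± 0.17 to 1.91 ± 0.06 in WT and from 1.54 ± 0.12 to 1.89 ± 0.06 in Aim2-/-. In these 6 comparisons the libraries of Tn and Treg did not overlap. The ratio of Ppp2r2a to Ppp2r2d went from 1.38 ± 0.10 to 1.13 ± 0.04 in Aim2-/- without overlap, and from 1.31 ± 0.13 to 1.21 ± 0.06 in WT with overlap.

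Each comparison of ratios without overlap had p = 0.029 in a two-sided exact permutation test, the smallest that 4 against 4 libraries allow. Adjusted over the 16 tests of ratios, all 7 were at 0.065 by the exact test and did not pass. Even with every comparison of Tn with Treg at this smallest p, none of them could have passed unless comparisons between the genotypes reached it too. No conclusion is drawn from their not passing. Between the genotypes none of the 8 comparisons of ratios was without overlap, and the smallest p was 0.086 (exact permutation, adjusted p = 0.17), for Ppp2r2a to Ppp2r2d in Treg. Per kilobase, Ppp2ca made up 31.0% to 36.3% of the catalytic sum in WT Tn and 42.0% to 44.0% in WT Treg. Ppp2r1a made up 84.4% to 88.4% and 70.8% to 73.0% of the scaffold sum. Ppp2r5a made up 49.1% to 51.8% and 21.7% to 27.1% of the sum of the 3 B56 genes. The sizes of these shares rest on the union exon lengths, which were 7490 bases for Ppp2ca and 1469 for Ppp2cb. In counts, Ppp2ca was at 2.29 to 2.91 times Ppp2cb in WT Tn and 3.69 to 4.0 times in WT Treg. Which catalytic mRNA is the more abundant is therefore not settled here. The catalytic and scaffold sums of CPM per kilobase stood at 71.2 ± 15.5 and 69.99 ± 11.4 in WT Tn and at 79.4 ± 3.9 and 123 ± 7.54 in WT Treg (SD, n = 4). The B55 sum ran from 20.7 to 40.05 in WT Tn and from 27.2 to 31.65 in WT Treg. The sum of the 3 B56 genes was 78.4 ± 3.85 in WT Tn and 46.9 ± 1.65 in WT Treg. The scaffold and B56 sums did not overlap between WT Tn and WT Treg, while the catalytic and B55 sums did.

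**Figure D4:**
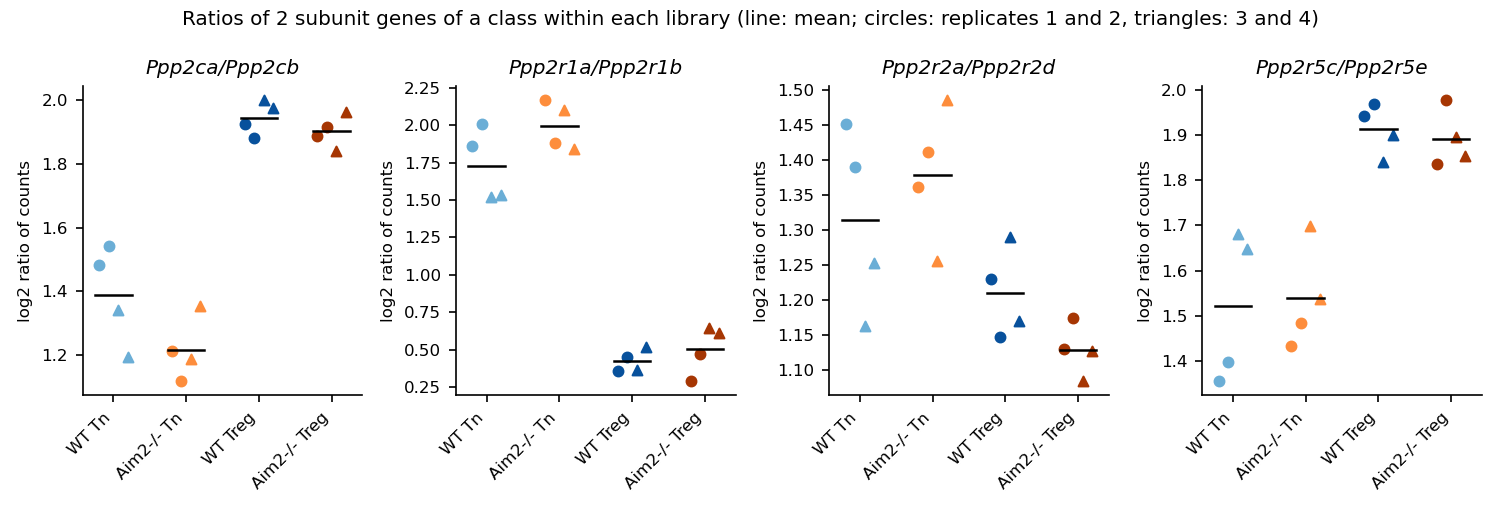
Log2 ratio of counts of 2 genes of a class (y axis, which does not start at 0) in each library by group (x axis), with the mean as a line, circles for replicates 1 and 2 and triangles for 3 and 4. The ratio of Ppp2r1a to Ppp2r1b has a mean of 1.73 in WT Tn and 0.42 in WT Treg.

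The other genes of the PP2A system were read from 4 lists. Of 10 other PP2A subunits, 8 were tested, since Ppp2r2b had no counts and Ppp2r2c at most 6, and all 8 were called in both genotypes, 5 higher and 3 lower in Treg. Ppp2r3a, a calcium-binding regulatory subunit, had the largest log2 fold change, 4.13 in WT and 5.155 in Aim2-/-. Ppp2r3c (1.01 and 0.92) and the B56 gene Ppp2r5d (0.72 and 0.84) were higher too. The B56 gene Ppp2r5b (-1.96 and -1.85), Ppp2r3d (-1.11 and -1.22) and the striatin gene Strn4 (-0.235 and -0.17) were lower. Ppp2r5b stood in 2 rows with equal counts and was counted once.

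Of 13 assembly factors and inhibitors of PP2A, 9 were higher, 3 lower and 1 not called in WT, and 8, 3 and 2 in Aim2-/-. Mastl, the kinase that switches on PP2A inhibitors at mitosis, rose most, by 5.41 in WT and 5.73 in Aim2-/- on the log2 scale. C330027C09Rik, which encodes the inhibitor CIP2A, rose by 5.003 and 5.425, and Set, another inhibitor, by 1.98 and 1.96. Tiprl (-0.89 and -0.78), the inhibitor gene Ensa (-0.78 and -0.71) and Igbp1, which binds free catalytic subunit (-0.44 and -0.395), were lower. The counts in WT were 8 higher and 2 lower with only WT Tn replicates 3 and 4, and with only replicates 1 and 2 they were 9 and 3.

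Of 17 related phosphatase genes, 7 were higher and 6 lower in WT and 10 and 4 in Aim2-/-. Ppp5c (1.175 in each genotype), Ppp1cc (0.84 and 0.94) and Ppp6r3 (0.345 and 0.53) led the higher genes, and the calcineurin genes Ppp3ca (-1.98 and -2.02) and Ppp3cc (-0.90 and -1.15) and Ppp6r2 (-1.53 and -1.52) the lower ones. Of 24 genes of the PI3K and AKT axis, 5 were higher and 12 lower in WT and 8 and 11 in Aim2-/-. Phlpp2, another AKT phosphatase (1.37 and 1.38), Pik3cg (1.36 and 1.64) and Akt1 (1.23 and 1.295) were higher. The PI3K inhibitor Pik3ip1 (-4.76 and -4.685), Pik3r5 (-3.05 and -3.08) and Pik3r3 (-1.94 and -1.87) were lower. The related phosphatases had 5 higher and 6 lower in WT with only WT Tn replicates 3 and 4, and with only replicates 1 and 2 they were 6 and 6. Those of the PI3K and AKT axis (5 and 12) and of the other subunits (5 and 3) were equal with either pair. The background shares of 76.9% and 79.3% hold for these counts as well.

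**Figure D5:**
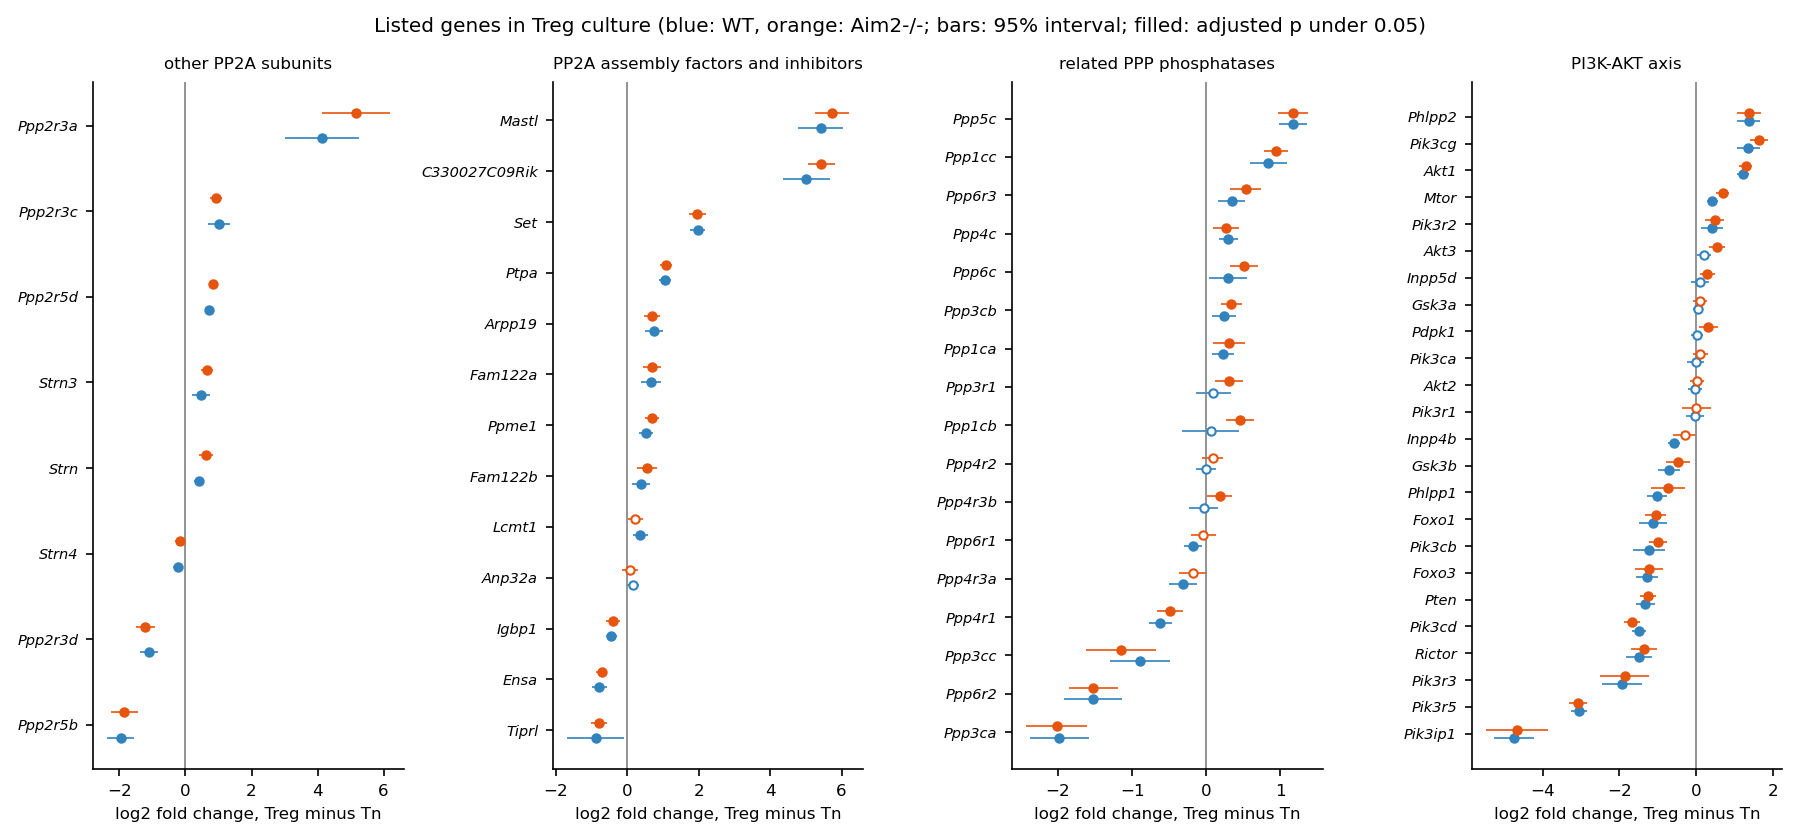
Log2 fold change, Treg minus Tn (x axis, scales differ between panels), with 95% intervals for the tested genes of the 4 lists (y axis), WT in blue and Aim2-/- in orange. Filled points have an adjusted p under 0.05, and Mastl, C330027C09Rik and Ppp2r3a stand highest, at 5.41, 5.003 and 4.13 in WT.

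Between the genotypes none of the 8, 13, 17 and 24 tested genes of these lists was called by edgeR, DESeq2 or limma-voom in Tn or in Treg. At an unadjusted p under 0.05 in Tn, edgeR had 1 other subunit, 1 assembly factor, 0 related phosphatases and 5 genes of the PI3K and AKT axis, beside 10.3% of all genes, and in Treg 0 of each list, beside 2.31%. The smallest p of each list in Tn belonged to Strn (-0.31, edgeR adjusted p = 0.38), Anp32a (0.23, 0.48), Ppp1cb (-0.32, 0.53) and Inpp4b (-0.37, 0.39). In Treg it belonged to Strn (-0.12), Igbp1 (0.08), Ppp4c (0.08) and Gsk3a (0.08), all with an adjusted p of 1. In the interaction it belonged to Strn (0.19), Lcmt1 (-0.165), Ppp1cb (0.37) and Mtor (0.26), again with an adjusted p of 1. With only WT Tn replicates 3 and 4, or only 1 and 2, 1 assembly factor was called in Tn, higher with the first choice and lower with the second. Within replicates 3 and 4 of both genotypes, 1 assembly factor was called higher and 1 gene of the PI3K and AKT axis lower in Tn. In the interaction, 1 assembly factor was called lower with only WT Tn replicates 3 and 4.

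The genes whose log2 CPM followed a member most closely over the 16 libraries are given as a description, since the libraries fall into a Tn and a Treg cluster that most genes share. Ppp2r1b was closest to Usp1 and Atad5 (Pearson r = 0.997 each) and Ppp2r5a to Rundc1 (0.997) and Ppp1r13b (0.996). Ppp2r1a was closest to Ninj1 (0.989) and Rpap3 (0.988), and Ppp2ca to Rab1a (0.977) and Golt1b (0.975). Ppp2r5e was closest to Tbc1d30 (0.978) and Cd28 (0.975), Ppp2cb to Clp1 (0.96) and 3110043O21Rik (0.938), Ppp2r2a to 3110043O21Rik (0.963) and Dnajb6 (0.952), and Ppp2r2d to Aggf1 (0.954) and Tmem248 (0.947). Ppp2r5c, the steadiest member, had the loosest match, to Wdr82 (0.865) and Sgpp1 (0.831). Rack1 was close to Rplp0 (0.976), which encodes a ribosomal protein.

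Within the groups, where only deviations from the 4 group means enter, Ppp2cb was closest to another member, Ppp2r2d (Pearson r = 0.969). Ppp2r2a was closest to Tiprl (0.989), Ppp2r2d to Strap (0.985), Ppp2r1a to Ncl (0.981), Ppp2ca to Etf1 (0.973) and Ppp2r5e to Ugcg (0.96). Ppp2r1b was closest to Casp2 (0.93), Ppp2r5a to Hsph1 (0.938), Ppp2r5c to Smpdl3a (0.948) and Rack1 to Eif3h (0.991). The deviations of Ppp2ca, Ppp2cb, Ppp2r2a and Ppp2r2d, all over the same 16 libraries, had r of 0.93 to 0.97 with each other, and the WT Tn libraries contribute the largest of these deviations. Ppp2r1b and Ppp2r5a had r of -0.72 within the groups and -0.99 over all libraries.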

How the data were processed

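RNA-seq of 16 libraries was used. Per the labels and the study's methods, the authors sequenced 51 bases from 1 end of stranded mRNA libraries, mapped the reads to GRCm38 with STAR and estimated counts per gene with RSEM, and the expected counts were deposited without normalization. Both GENCODE m15 and an Ensembl annotation are named in the methods, while tool versions and the strand setting are not given in the sources used here. Expected counts were rounded. Groups and replicate numbers came from the titles. Differences were tested with edgeR 4.0.16 (TMM, robust quasi-likelihood F test) over all genes that reached 10 counts in 4 or more libraries of the fit, with Benjamini-Hochberg adjustment and a threshold of 0.05. DESeq2 1.42.0 and limma 3.58.1 (voom) were alternatives, and the code was tested on simulated data. A floor of 3 counts was 0.087 to 0.133 CPM, which covers counting error only. Genes were located in GENCODE M21 (GRCm38, 98.7% of genes matched). The members and lists were chosen with earlier results of these data known. All members and Rack1 were named, and from each list the 3 called genes with the largest change in each direction or, with none called, the smallest p.

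Counts with any fractional part, which show reads divided between genes, occurred in all 16 libraries for Ppp2r1b, Ppp2r2a and Ppp2r2d, in 15 for Ppp2r5a, in 7 for Ppp2ca and in 0 for the other 4 members. Ignoring fractions within 0.02 of a whole number, the libraries were 15 for Ppp2r1b, 12 for Ppp2r5a and 6 for Ppp2ca. The fractions complemented, within 0.02, those of Sik2 for Ppp2r1b, of Mapk1ip1 for Ppp2r2d and of a gene at 0.235 to 2.3 CPM for Ppp2r2a. No 2 libraries of a group agreed within sampling noise (chi-square per degree of freedom 10.44 to 98.15). Coding sequences of the catalytic genes and 1 of the genes closest to Rack1 are not reported here.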

Additional observations from a re-analysis of the deposited data

Results flagged for a closer look

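Of 60 sets of 4 libraries (members, Rack1, Aim2 and ratios in each group), 3 held a library whose gap to the nearest of the other 3 passed Dixon's 95% limit, at 0.85 to 0.89 of the range; chance gives such a gap in about 5% of groups. Ppp2ca in Aim2-/- Treg replicate 4 stood at 302 CPM, Ppp2cb in Aim2-/- Tn replicate 1 at 74.2 CPM and Aim2 in Aim2-/- Tn replicate 1 at 9.26 CPM. Without Aim2-/- Treg replicate 4, the difference of Ppp2ca between the genotypes in Treg was 0.00 (-0.004) on the log2 scale, and it passed in neither fit.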

How the results depend on the processing

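Values are log2 differences, second group minus first, as in the report, and the cause of a change with a setting was not tested. The count of members called was 0 to 2 for the genotype in Tn and 0 to 1 in the interaction, reaching 2 and 1 with only WT Tn replicates 1 and 2. It was 0 by edgeR, DESeq2 and limma-voom for the genotype in Treg, 4 to 7 for culture in WT (4 without the filter and without WT Tn replicate 3, WT Tn replicate 4, WT Treg replicate 3 or WT Treg replicate 4) and 5 to 6 for culture in Aim2-/-. The fits with only 1 pair of WT Tn libraries were chosen after seeing the data.

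For the genotype in Tn, Ppp2r1a turned to -0.014 with RLE factors, -0.008 with library totals, -0.014 with DESeq2, -0.015 without the filter, -0.006 with 10 counts in every library and -0.003 with all 16 libraries in one fit. Within replicates 1 and 2, Ppp2r1a was -0.158 and Rack1 -0.119, and with only WT Tn replicates 1 and 2 they were -0.217 and -0.062. Within replicates 3 and 4, Ppp2ca was 0.168, Ppp2cb 0.167, Ppp2r2a 0.414, Ppp2r2d 0.245 and Ppp2r5e 0.027. With only WT Tn replicates 3 and 4, these were 0.16, 0.212, 0.438, 0.265 and 0.084. Leaving out 1 library at a time gave -0.115 to 0.053 for Ppp2cb, -0.084 to 0.09 for Ppp2r1a, -0.288 to 0.039 for Ppp2r2a and -0.033 to 0.109 for Rack1.

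For the genotype in Treg, within replicates 1 and 2, Ppp2r1b was 0.039, Ppp2r5c 0.05 and Ppp2r5e 0.102. Leaving out 1 library gave -0.004 to 0.097 for Ppp2ca, -0.083 to 0.039 for Ppp2r1b, -0.101 to 0.018 for Ppp2r5a, -0.077 to 0.019 for Ppp2r5c and -0.076 to 0.03 for Ppp2r5e.

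For culture in WT, Ppp2r2d was 0.043 with RLE factors, 0.038 with library totals, 0.043 with DESeq2, 0.044 with limma-voom, 0.044 without the filter, 0.008 with 10 counts in every library, 0.029 with all 16 libraries and 0.046 with the replicate pairs as a covariate. Ppp2r5c was 0.01 with RLE factors, 0.01 with DESeq2, 0.015 without the filter, 0 with all 16 libraries and 0.052 within replicates 1 and 2. Within replicates 3 and 4, Ppp2cb was 0.191, Ppp2r2a 0.5 and Ppp2r2d 0.48, and with only WT Tn replicates 3 and 4 they were 0.132, 0.399 and 0.399. Leaving out 1 library gave -0.3 to 0.018 for Ppp2r2a, -0.134 to 0.115 for Ppp2r2d and -0.061 to 0.044 for Ppp2r5c.

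For culture in Aim2-/-, Ppp2r5c was -0.006 with library totals, -0.004 with limma-voom, -0.03 with 10 counts in every library, -0.003 with the covariate and -0.135 within replicates 3 and 4. Ppp2cb was -0.021 within replicates 1 and 2. Leaving out 1 library gave -0.031 to 0.148 for Ppp2r2a and -0.062 to 0.09 for Ppp2r5c.

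For the interaction, Ppp2r5c was -0.001 with library totals and -0.014 with only WT Tn replicates 1 and 2. Within replicates 3 and 4, Ppp2ca was -0.097, Ppp2cb -0.014, Ppp2r1a -0.092, Ppp2r2a -0.361, Ppp2r2d -0.07, Ppp2r5a -0.004, Ppp2r5c -0.086, Ppp2r5e -0.141 and Rack1 -0.118. With only WT Tn replicates 3 and 4, Ppp2ca was -0.102, Ppp2cb -0.112, Ppp2r1a -0.187, Ppp2r2a -0.385, Ppp2r2d -0.131, Ppp2r5e -0.09 and Rack1 -0.062. Leaving out 1 library gave -0.031 to 0.147 for Ppp2r1a, -0.032 to 0.066 for Ppp2r5c, -0.008 to 0.117 for Ppp2r5e and -0.054 to 0.085 for Rack1.

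Of the ratios, Ppp2ca to Ppp2cb for the genotype in Tn was -0.347 within replicates 1 and 2 and 0.002 within replicates 3 and 4. In culture in WT it was 0.391 and 0.718, and Ppp2r5c to Ppp2r5e was 0.579 and 0.204. Leaving out 1 library gave -0.037 to 0.072 for Ppp2r5c to Ppp2r5e for the genotype in Tn.

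Same-numbered libraries did not deviate together in every pair (correlations 0.02 to 0.3 for the genotype in Tn, -0.01 to 0.4 in Treg, -0.02 to 0.13 for culture in WT and -0.04 to 0.09 in Aim2-/-), so the numbers were not taken as pairs. For the genotype in Treg, the correlations of replicates 1 to 4 were 0.4, 0.23, -0.01 and 0.35. With the block there, edgeR had 1 of 9 members and 1104 of 13221 genes at an unadjusted p under 0.05, against 0 and 305 without it. In the interaction these were 1 of 9 and 616 of 14669, against 0 and 512. Under the replicate block, fitted values kept their call and direction except 2. The ratio differences are the same by construction, and 4 pairs cannot give an exact p below 0.125. The values that turned were Ppp2r2d in culture in WT at 0.044 and Ppp2r5c in culture in Aim2-/- at -0.004.

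Over all genes, the count called for the genotype in Tn was 31, against 127 by DESeq2, 47 without the filter, 18 with 10 counts in every library, 50 with all 16 libraries, 51 with the covariate, 499 within replicates 3 and 4, 376 with only WT Tn replicates 3 and 4 and 156 with only replicates 1 and 2. Without WT Tn replicate 1 or Aim2-/- Tn replicate 2 it was 19, without Aim2-/- Tn replicate 3 it was 18 and without Aim2-/- Tn replicate 4 it was 17. For the genotype in Treg it was 29, against 52 by DESeq2, 17 with 10 counts in every library, 5 within replicates 3 and 4, and 10 to 17 without any 1 library. For the interaction it was 3, against 10 by DESeq2, 73 with only WT Tn replicates 3 and 4, 34 with only replicates 1 and 2, 5 without Aim2-/- Tn replicate 1, and 0 by edgeR with 10 counts in every library, where 369 had an unadjusted p under 0.05.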
